A study of Mus musculus with 4 samples.

Results

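The 10 genes described here are Nkg7, Klrd1, Gzma, Gzmb, Prf1, Cd3e, Cd4, Il2rb, Ncr1 and Cd69, which are used as markers of cytotoxic lymphocytes, natural killer (NK) cells and T cells. They were taken by symbol, and all 10 were found among the 23284 genes of the deposited tables. RNA was sequenced from donor-derived EGFP+ mouse cells recovered from recipient bone marrow. The 2 libraries of the 5-FU group came from wild-type mice given 5-fluorouracil, a pyrimidine analog that kills dividing cells, at 200 mg/kg 2 days before the transplant, and the 2 control libraries came from wild-type mice left untreated. In both groups the graft was 100000 LSK cells (Lin- Sca1+ c-Kit+, the marrow fraction rich in stem cells and early progenitors) of CAG-EGFP donors, in which a ubiquitous promoter drives EGFP, and EGFP+ cells were sorted again from each recipient 24 h later. Because the promoter is active in all cell types, the sort selected on EGFP and on no lineage. Whether every sorted cell came from the donor was not tested. The sources used here do not give the age, sex or strain of the mice. The labels name the samples as biological replicates, and nothing says whether the donor cells were pooled.

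NK cells and cytotoxic T cells kill target cells by releasing granules that hold perforin, which forms pores, and granzymes, which are serine proteases that enter through them. NK cells decide on killing by balancing activating receptors such as NKp46 and NKG2D against inhibitory receptors such as the CD94 and NKG2A pair, and they depend on interleukin 15 signals through the receptor chain CD122. T cells recognise antigen through a receptor that signals by way of the CD3 chains, with CD4 or CD8 as coreceptors. LSK cells are sorted to lack lineage markers, so mature lymphocytes are not among the cells meant for transplant.

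Of the members 4 exceeded 6 FPKM in both libraries of at least 1 group, and 6 stayed under 2 FPKM in every library. FPKM are fragments scaled by transcript length and by mapped reads, so levels are compared between genes per length. The first were Nkg7, Cd4 and Cd69, in both groups of recipients, and Klrd1, in control recipients alone, since it was under 1 FPKM in 5-FU recipients. The second were Ncr1, Gzmb, Il2rb, Gzma, Prf1 and Cd3e. Cells from 5-FU recipients had higher Cd69 and Nkg7, and lower Klrd1 and Cd4, than cells from control recipients. Of the defining transcripts of NK and T cells, Prf1 and Cd3e were listed at 0 in 3 of the 4 libraries. Gzma was listed at 0 in 5-FU recipient 1 and control recipient 1, and Ncr1 was low but detected in each library.

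**Figure D1:**
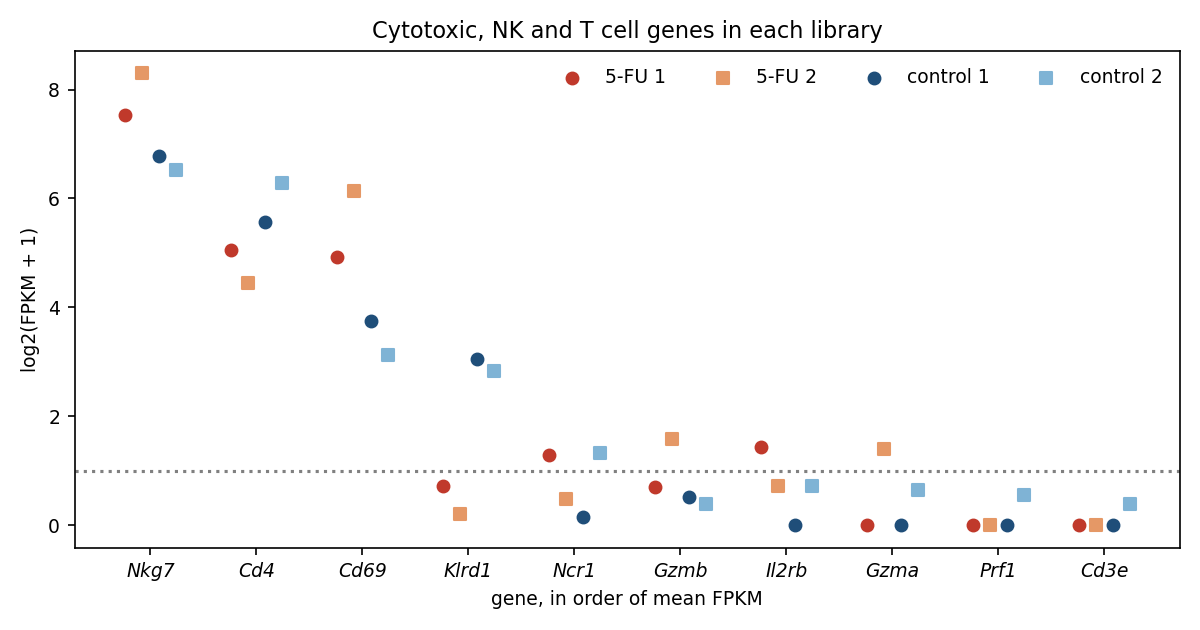
Level of each gene in each library as log2(FPKM + 1), with genes in order of their mean over the 4 libraries, and the dotted line at 1 FPKM. The values of 5-FU recipients lie above those of control recipients for Nkg7 and Cd69 and below them for Cd4 and Klrd1, and the 6 genes to the right lie under 2 FPKM.

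The test was limited to genes that reached 1 FPKM in 2 libraries or more, which 5 of the 10 members and 11496 genes in all did. Of the 5 tested members 2 were higher, 2 were lower and 1 did not pass (limma with a mean-variance trend on log2(FPKM + 1), two-sided, Benjamini-Hochberg adjusted p under 0.05 over all tested genes). Among all tested genes 8.23% were higher and 4.67% were lower by the same rule. The 5 members that missed the filter were Gzma, Gzmb, Prf1, Cd3e and Il2rb. In 5 of the 10 members, 4 of them tested, the values of the groups did not overlap, which was the case for 62.2% of all tested genes (31.4% with 5-FU recipients higher and 30.7% with them lower). With no filter on low values none of the 10 passed, and the adjusted p in limma was 0.082 for Klrd1, 0.11 for Cd69, 0.12 for Nkg7 and 0.15 for Cd4, each with an unadjusted p under 0.05. The calls given below for pathway genes were lost without the filter too, at limma adjusted p from 0.082 for Ccl5 and Klf2 to 0.12 for Bcl2. Without the mean-variance trend Nkg7 (limma adjusted p = 0.059) and Cd4 (limma adjusted p = 0.082) did not pass.

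Nkg7 encodes a membrane protein of cytotoxic granules that promotes their release. It had the highest level of the 10 in every library, with 184 and 314 FPKM in 5-FU recipients, against 109 and 91.1 FPKM in control recipients. Both 5-FU libraries lay above both control libraries, and 5-FU recipient 2 was the highest of all. The gene spans 43437073 to 43438249 of chromosome 7 on GRCm38, the build of all coordinates given, in GENCODE M21. The means were 249 ± 91.5 FPKM in 5-FU recipients and 99.98 ± 12.6 FPKM in control recipients (SD, n = 2 each), a log2 fold change of 1.26 with an SE of 0.28 and a limma adjusted p of 0.028. In the order of all genes by level Nkg7 stood at place 557 and 367 in the 5-FU libraries and 890 and 1096 in the control libraries. The call was lost without control recipient 1, at 1.39 (limma adjusted p = 0.13), and without control recipient 2, at 1.14 (limma adjusted p = 0.22).

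The granule proteins that do the killing were not expressed at a level near that of Nkg7. Gzmb, granzyme B, which cleaves caspases, had 0.618 and 1.98 FPKM in 5-FU recipients, against 0.431 and 0.311 FPKM in control recipients. Gzma, granzyme A, a trypsin-like protease, was listed at 0 in 5-FU recipient 1 and control recipient 1 and had 1.64 FPKM in 5-FU recipient 2 and 0.561 FPKM in control recipient 2. Prf1, perforin, was listed at 0 in both 5-FU recipients and in control recipient 1 and had 0.475 FPKM in control recipient 2. The granzyme values were highest in 5-FU recipient 2, and only for Gzmb did the groups not overlap. With the filter removed the adjusted p of these 3 genes in limma was 0.32 for Gzmb, 0.71 for Gzma and 0.49 for Prf1.

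The promoter windows of Nkg7 and Gzmb are shown because both genes encode granule proteins, and Nkg7 was well expressed in every library where Gzmb stayed under 2 FPKM. Each window runs from 250 bases before to 50 bases after the transcript start, on the strand of the gene, from RefSeq on GRCm38.p6. Capitals mark matches to the letters searched on either strand, which were TGTGGT for RUNX factors, TGACTCA for AP-1, GAGGAAG for PU.1-type ETS factors, AGATAA for GATA factors and AGGTGTGA for T-box factors. The first is chr7:43436888-43437187 on the plus strand and the second is chr14:56262285-56262584 on the minus strand.
Nkg7: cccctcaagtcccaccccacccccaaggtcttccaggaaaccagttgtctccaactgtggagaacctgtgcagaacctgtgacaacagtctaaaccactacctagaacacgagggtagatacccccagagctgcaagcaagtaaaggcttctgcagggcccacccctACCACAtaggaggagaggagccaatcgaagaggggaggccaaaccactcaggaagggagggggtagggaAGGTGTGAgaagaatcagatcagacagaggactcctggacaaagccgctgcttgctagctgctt
Gzmb: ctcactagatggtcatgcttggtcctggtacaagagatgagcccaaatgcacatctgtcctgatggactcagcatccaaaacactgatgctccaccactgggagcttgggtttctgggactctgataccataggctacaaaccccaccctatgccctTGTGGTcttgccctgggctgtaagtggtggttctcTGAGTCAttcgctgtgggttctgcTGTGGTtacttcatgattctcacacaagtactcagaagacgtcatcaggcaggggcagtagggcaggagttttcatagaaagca
The Nkg7 window held the RUNX letters 83 bases and the T-box letters 14 bases before the start. The Gzmb window held the RUNX letters 93 and 34 bases and the AP-1 letters 58 bases before the start. These distances hold for the RefSeq starts only. GENCODE M21 starts Nkg7 at 43437073, before the RefSeq start, and Gzmb at 56262260, downstream of its whole window. Of 32851 windows of this length, 16.8% held the RUNX letters, 1.27% the T-box letters and 5.20% the AP-1 letters. The RUNX letters also occurred in the windows of Gzma, Prf1 and Ncr1, whose transcripts stayed under 2 FPKM. Of the 10 members 6 had a window, and in that of Cd3e none of the 5 sets of letters occurred.

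Other genes of the cytotoxic granule and its effectors did not move together. Of 21 genes listed for this function 13 were tested, of which 2 were higher, 1 was lower and 10 did not pass. The median log2 fold change was -0.15, against -0.01 over all tested genes. Over all tested genes 8.23% were higher and 4.67% lower, the shares to set beside this count and those of the lists below. Besides Nkg7 the higher gene was Ccl5, a chemokine stored and secreted by cytotoxic cells, with 30.0 and 37.6 FPKM in 5-FU recipients, against 10.5 and 8.92 FPKM in control recipients. Its log2 fold change was 1.70 (SE 0.23, limma adjusted p = 0.011). The lower gene was Stx11, a syntaxin needed for granule fusion in lymphocytes, with 5.28 and 5.04 FPKM in 5-FU recipients, against 16.5 and 11.2 FPKM in control recipients, a log2 fold change of -1.25 (SE 0.28, limma adjusted p = 0.031). Cathepsin C, the product of Ctsc, activates granzymes and also the serine proteases of neutrophils and mast cells. Its transcript had 421 and 254 FPKM in 5-FU recipients, against 613 and 699 FPKM in control recipients, without passing (limma adjusted p = 0.057, or 0.049 with a filter of 5 FPKM). Cst7, the endolysosomal protease inhibitor cystatin F, had 17.5 and 31.8 FPKM in 5-FU recipients, against 9.70 and 14.6 FPKM in control recipients (limma adjusted p = 0.10). Neither call of these genes held without control recipient 2 (limma adjusted p = 0.065 for Ccl5 and 0.11 for Stx11), and that of Stx11 was also lost without control recipient 1 (limma adjusted p = 0.27). Gzmc, Gzmk and the interferon gamma gene Ifng were listed at 0 in all 4 libraries.

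**Figure D2:**
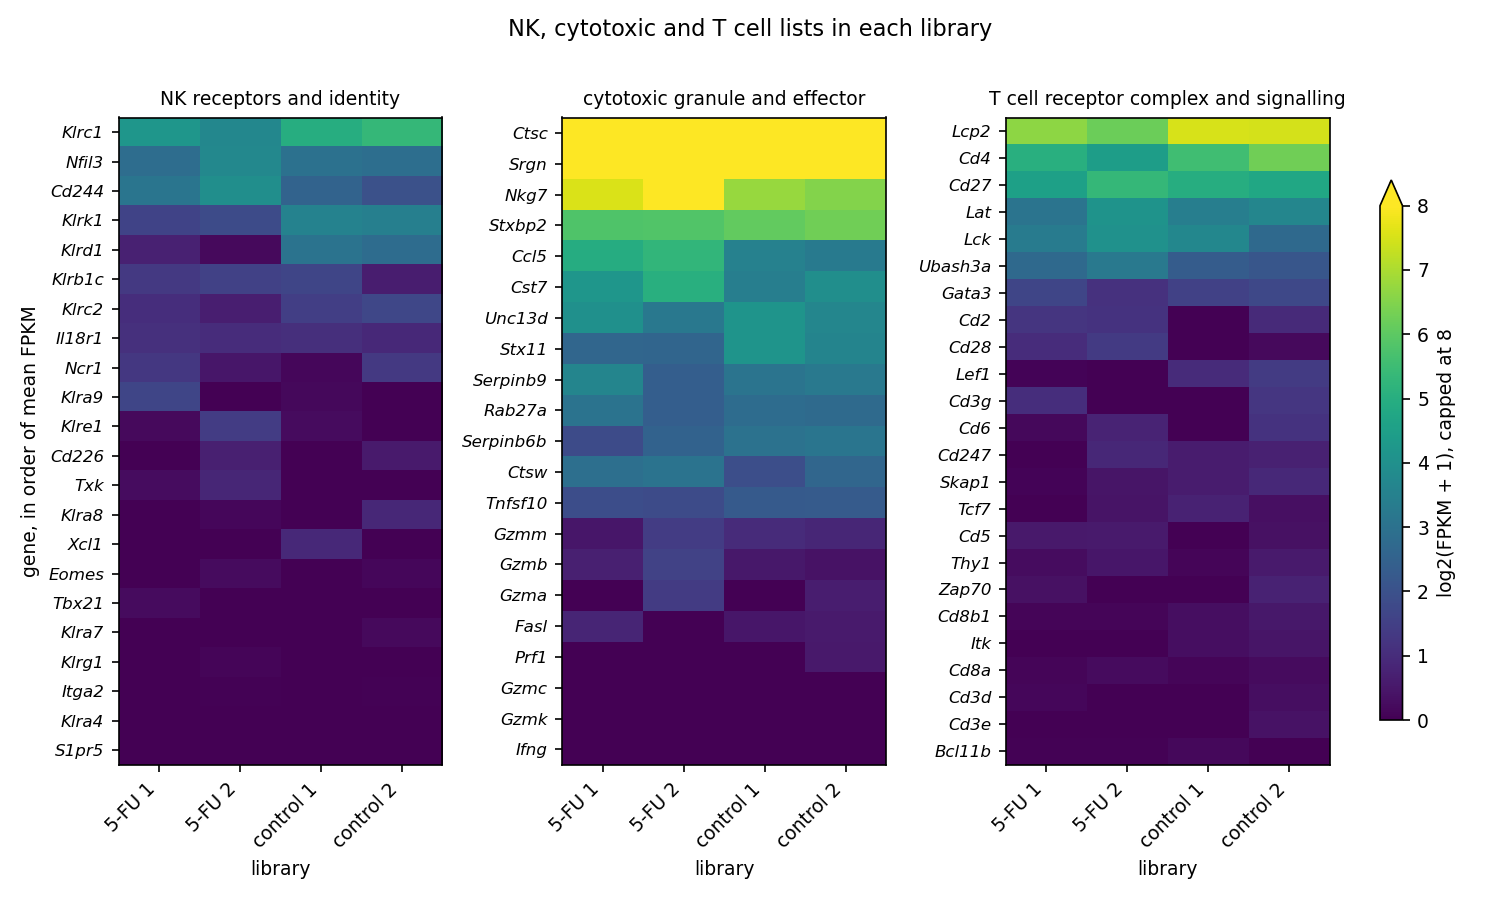
Level of each gene of the NK, cytotoxic granule and T cell lists in each library, as log2(FPKM + 1) on a colour scale capped at 8, with libraries in columns and genes in order of their mean. The bright rows at the top include Ctsc, Nkg7, Lcp2 and Cd4, and the defining lymphocyte genes such as Gzma, Prf1, Eomes, Cd3d and Cd3e lie at the dark end.

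Klrd1 showed the strongest difference of the tested members in the negative direction. It encodes CD94, the invariant lectin chain that pairs with NKG2 chains to read the nonclassical class I molecule Qa-1. It had 0.648 and 0.151 FPKM in 5-FU recipients, against 7.32 and 6.09 FPKM in control recipients. The groups were far apart, and the spread within each was small beside the gap. The means were 0.400 ± 0.351 FPKM in 5-FU recipients and 6.71 ± 0.869 FPKM in control recipients (SD, n = 2 each), and the mean was 16.8-fold lower in 5-FU recipients. The log2 fold change was -2.48 (SE 0.33, limma adjusted p = 0.011). Klrd1 met the filter of 1 FPKM through the control libraries alone, so its place among the tested genes was tied to its difference, and with no filter it did not pass (limma adjusted p = 0.082). A pseudocount of 1 damps it at this low level, and the value was -3.97 with 0.1 and -1.12 with 5. The 5-FU values correspond to about 4.3 and 1.1 reads, and the control values to about 40.2 and 34.8 reads, by the longest annotated transcript of 919 bases. Without control recipient 1 the adjusted p was 0.051 at a log2 fold change of -2.36.

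Of the lectin receptor genes near Klrd1 on chromosome 6, Klrk1 and Klrc1 were also lower in 5-FU recipients. Klre1 lies at 129577905 to 129585827, Klrd1 at 129591782 to 129598775, Klrk1 at 129610323 to 129623864, Klrc2 at 129647496 to 129660689 and Klrc1 at 129666015 to 129678973. Klrc1, which encodes the inhibitory partner NKG2A, had 17.3 and 12.1 FPKM in 5-FU recipients, against 30.5 and 38.7 FPKM in control recipients (log2 fold change -1.19, SE 0.25, limma adjusted p = 0.026). Klrk1, the activating receptor NKG2D, had 2.08 and 2.53 FPKM in 5-FU recipients, against 10.8 and 9.98 FPKM in control recipients (log2 fold change -1.79, SE 0.28, limma adjusted p = 0.014). For both genes every 5-FU value lay below every control value, as for Klrd1. Klrc2, the activating chain NKG2C, had 1.06 and 0.599 FPKM in 5-FU recipients, against 1.83 and 2.26 FPKM in control recipients, which did not pass (limma adjusted p = 0.17). Klre1, a lectin receptor gene of NK cells and the listed gene nearest to Klrd1, had 0.151 and 1.70 FPKM in 5-FU recipients, against 0.185 FPKM and a listed 0 in control recipients. Its groups overlapped, and it was not tested. Klrc1 and Klrc2 have similar sequences, so reads may be shared between them and the value of each is uncertain. The calls of Klrk1 and Klrc1 were lost without control recipient 1 (limma adjusted p = 0.099 and 0.12) and without control recipient 2 (0.078 and 0.22), and that of Klrc1 also with no trend (limma adjusted p = 0.052).

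**Figure D3:**
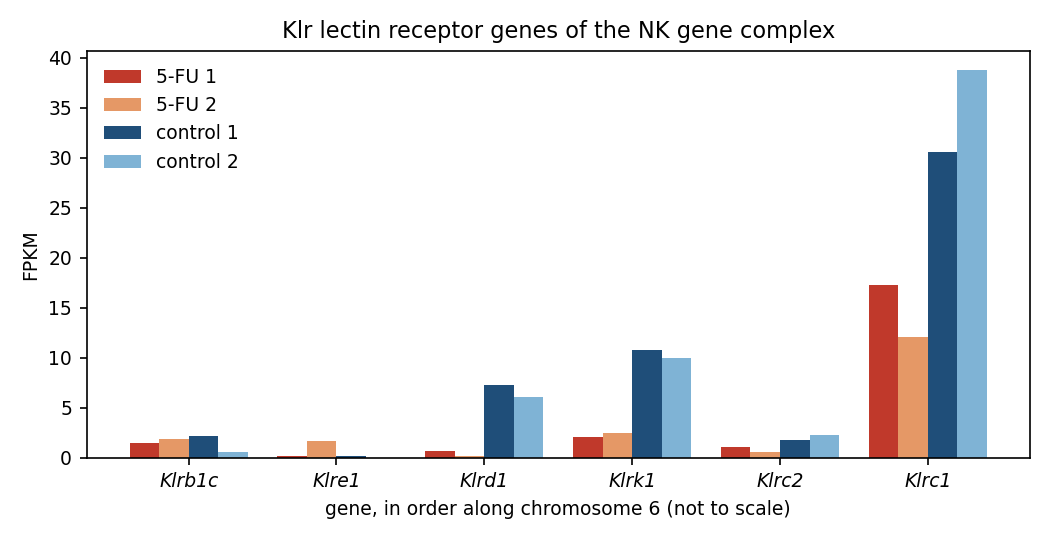
FPKM of 6 lectin receptor genes in each library, with genes in order along chromosome 6 and spacing not to scale. Bars of 5-FU recipients are lower than those of control recipients for Klrd1, Klrk1, Klrc2 and Klrc1, and Klrb1c and Klre1 stay under 2.5 FPKM with overlapping groups.

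Outside this cluster the NK genes ranged from a listed 0 to 14.6 FPKM, the level of Cd244 in 5-FU recipient 2. Ncr1, which encodes the activating receptor NKp46 and marks NK cells in mice, had 1.44 and 0.397 FPKM in 5-FU recipients, against 0.104 and 1.497 FPKM in control recipients. Each group held a higher and a lower library, and the log2 fold change was 0.15 (SE 0.49, 95% interval -0.99 to 1.29, limma adjusted p = 0.86). These values correspond to about 17.4 and 5.1 reads in 5-FU recipients and 1.0 and 15.4 reads in control recipients, by a transcript of 1495 bases. Of 22 genes in the list of NK receptors and identity, 11 stayed under 1 FPKM in every library, and 9 were tested. None of the 9 was higher, Klrd1, Klrk1 and Klrc1 were lower and 6 did not pass, with a median of 0.06. Cd244, the receptor 2B4, had 7.60 and 14.6 FPKM in 5-FU recipients, against 4.84 and 2.93 FPKM in control recipients (limma adjusted p = 0.061). Nfil3, a transcription factor needed for NK cell development that also acts in other cells, had 6.33 and 12.2 FPKM in 5-FU recipients, against 6.86 and 6.39 FPKM in control recipients (limma adjusted p = 0.49). Eomes, a T-box factor of mature NK cells, stayed at or under 0.170 FPKM, and the inhibitory receptor gene Klra4 and the egress receptor gene S1pr5 were listed at 0 in all 4 libraries (Klre1, Nfil3 and the last 3 were chosen after their values were seen).

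Il2rb encodes CD122, the chain shared by the interleukin 2 and interleukin 15 receptors. It had 1.71 and 0.641 FPKM in 5-FU recipients, was listed at 0 in control recipient 1 and had 0.654 FPKM in control recipient 2. The values of 5-FU recipient 2 and control recipient 2 were nearly equal, and with the filter removed the adjusted p in limma was 0.35. Of 12 genes listed for this receptor and its signalling 9 were tested, with 2 higher, 1 lower and 6 not past, and a median of 0.10. Cish, a feedback inhibitor induced by STAT5, was higher, with 9.71 and 9.28 FPKM in 5-FU recipients, against 3.47 and 3.78 FPKM in control recipients (log2 fold change 1.18, SE 0.27, limma adjusted p = 0.030). Bcl2, an inhibitor of apoptosis, was higher as well, with 19.9 and 21.2 FPKM in 5-FU recipients, against 10.7 and 6.003 FPKM in control recipients (log2 fold change 1.25, SE 0.30, limma adjusted p = 0.036). Jak1, a kinase bound to the receptor, was lower, with 56.3 and 54.7 FPKM in 5-FU recipients, against 88.6 and 90.3 FPKM in control recipients (log2 fold change -0.68, SE 0.18, limma adjusted p = 0.049). Il15, the cytokine that NK cells need, had 18.1 and 21.1 FPKM in 5-FU recipients, against 30.2 and 33.9 FPKM in control recipients (limma adjusted p = 0.071). Without control recipient 1 none of the 3 calls held (limma adjusted p = 0.20 for Cish, 0.075 for Bcl2 and 0.35 for Jak1), nor did they without control recipient 2 (limma adjusted p = 0.18, 0.28 and 0.37). The call of Bcl2 was also lost with TPM scaling (limma adjusted p = 0.055) and no trend (limma adjusted p = 0.057), and that of Jak1 with a pseudocount of 0.1 (limma adjusted p = 0.053) and no trend (limma adjusted p = 0.10). STAT5 signalling and BCL2 also serve other blood cells, and bulk values do not show which cells carried them.

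Cd4 and Cd3e, both parts of T cell antigen recognition, did not go together. Cd4, a coreceptor that binds class II molecules and is also found on some dendritic cells, had 32.1 and 20.7 FPKM in 5-FU recipients, against 46.2 and 76.8 FPKM in control recipients. Both 5-FU libraries lay below both control libraries, and control recipient 2 was the highest. The means were 26.4 ± 8.02 FPKM in 5-FU recipients and 61.5 ± 21.6 FPKM in control recipients (SD, n = 2 each), a log2 fold change of -1.18 with an SE of 0.31 and a limma adjusted p of 0.046. The call lay close to the threshold and was lost with a pseudocount of 0.1 (limma adjusted p = 0.053), with TPM scaling (limma adjusted p = 0.061), without control recipient 1 at -1.54 (limma adjusted p = 0.085) and without control recipient 2 at -0.81 (limma adjusted p = 0.32). Cd3e, an invariant chain of the T cell receptor complex, was listed at 0 in both 5-FU recipients and in control recipient 1 and had 0.306 FPKM in control recipient 2. Its exons overlap those of a predicted gene on the other strand, Gm48719, and the sources used here do not say whether counting used strand, so that small value is uncertain. Cd4 transcripts were thus measured in libraries where those of Cd3e were listed at 0.

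The wider T cell list was split in the same way. Of 24 genes of the T cell receptor complex and its signalling, 12 stayed under 1 FPKM in every library, and of 10 tested genes none was higher, Cd4 and Lcp2 were lower and 8 did not pass, with a median of 0.05. Lcp2, the adaptor SLP-76 that also acts in myeloid cells and platelets, had 99.3 and 72.8 FPKM in 5-FU recipients, against 184 and 179 FPKM in control recipients (log2 fold change -1.08, SE 0.21, limma adjusted p = 0.022). Its call was lost without either control library (limma adjusted p = 0.18 each) and with no trend (limma adjusted p = 0.053). Ubash3a, a phosphatase-like suppressor of T cell receptor signals, had 5.63 and 8.35 FPKM in 5-FU recipients, against 3.98 and 3.42 FPKM in control recipients (limma adjusted p = 0.14). The costimulatory receptor gene Cd28 had 1.01 and 1.55 FPKM in 5-FU recipients, against a listed 0 and 0.152 FPKM in control recipients. The adhesion receptor gene Cd2 had 1.37 and 1.28 FPKM in 5-FU recipients, against a listed 0 and 0.937 FPKM in control recipients. Neither passed (limma adjusted p = 0.078 for Cd28 and 0.25 for Cd2). Both met the filter of 1 FPKM through the 5-FU libraries alone, so their testing was tied to their difference. The summed level of 4 defining T cell genes, Cd3e, Cd3d, Cd3g and Cd8a, was 1.22 and 0.172 FPKM in 5-FU recipients and 0.0900 and 2.09 FPKM in control recipients.

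Cd69 had the largest positive fold change of the tested members. It encodes an early activation lectin of leukocytes, whose protein holds lymphocytes in tissue by removing the sphingosine 1-phosphate receptor S1PR1 from the surface. It had 29.3 and 69.3 FPKM in 5-FU recipients, against 12.4 and 7.72 FPKM in control recipients. Both 5-FU libraries lay above both control libraries, and 5-FU recipient 2 was the highest. The means were 49.3 ± 28.3 FPKM in 5-FU recipients and 10.1 ± 3.34 FPKM in control recipients (SD, n = 2 each), a log2 fold change of 2.09 with an SE of 0.41 and a limma adjusted p of 0.021. Without 5-FU recipient 2 the log2 fold change was 1.48, and without control recipient 2 it was 1.78 and did not pass (limma adjusted p = 0.090).

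Other genes of S1P-controlled egress did not follow Cd69. All 8 genes listed were tested, with 1 higher, 1 lower and 6 not past, and a median of -0.10. Klf2, a transcription factor that keeps T cells quiescent and drives S1pr1 in them, was lower, with 34.4 and 25.3 FPKM in 5-FU recipients, against 124 and 118 FPKM in control recipients (log2 fold change -1.995, SE 0.21, limma adjusted p = 0.0065). S1pr1 itself, chosen after its values were seen, had 3.66 and 2.86 FPKM in 5-FU recipients, against 2.58 and 3.55 FPKM in control recipients, which overlapped. The S1P lyase gene Sgpl1 had 82.7 and 44.6 FPKM in 5-FU recipients, against 103 and 123 FPKM in control recipients (limma adjusted p = 0.087). Cxcr4, the receptor that retains progenitors in marrow, had 6.504 and 8.56 FPKM in 5-FU recipients, against 4.86 and 5.77 FPKM in control recipients (limma adjusted p = 0.34).

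**Figure D4:**
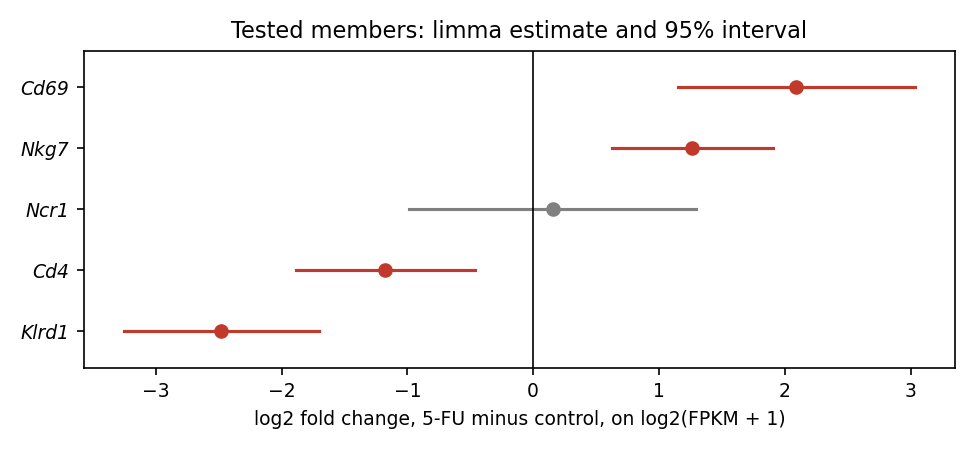
Limma log2 fold change, 5-FU minus control on log2(FPKM + 1), for the 5 tested members, with 95% intervals as lines and genes past an adjusted p of 0.05 in red. Cd69 and Nkg7 lie above 0, Klrd1 and Cd4 lie below 0, and the interval of Ncr1 spans it.

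In order of level within 5-FU recipients, Nkg7 led, followed by Cd69 and Cd4, whose ranges met, and then by the members under 2 FPKM. Within control recipients the order was Nkg7, Cd4, Cd69 and Klrd1, with no overlap between neighbours, and then the members under 2 FPKM. Of the 10 genes, 3 lie on chromosome 6 (Cd4, Cd69 and Klrd1) and 2 on chromosome 7 (Ncr1 and Nkg7). Genes of like pattern were found by the distance between mean-centred log2(FPKM + 1) values over the 4 libraries. For Klrd1 the nearest were the AP-1 gene Fosb (distance 0.26) and the glutathione transferase gene Mgst2 (0.27). For Cd69 they were 2810417H13Rik, named Pclaf by RefSeq, whose protein binds the replication clamp (0.33), the dUTP pyrophosphatase gene Dut (0.42) and the pyrophosphatase gene Ppa1 (0.45). With 4 libraries many genes come close to any such pattern.

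Markers of other cells differed between the libraries as well. Fewer cells of a type and less RNA per cell cannot be told apart in these bulk samples. The sum of 12 macrophage markers, led by C1qb, Vcam1 and C1qc, was 12046 and 7225 FPKM in 5-FU recipients and 17223 and 18369 FPKM in control recipients, and 3 of the 12 were lower with none higher. Those 3 were Csf1r, Mrc1 and Timd4, and the leading markers did not pass (limma adjusted p = 0.0935 for C1qb, 0.17 for Vcam1 and 0.12 for C1qc). Over all tested genes 4.67% were lower, which is the share to set beside each count of lower markers here. The sum of 12 genes induced by dissociation and handling, led by Zfp36, Dusp1 and Fos, was 724 and 554 FPKM in 5-FU recipients and 1566 and 1505 FPKM in control recipients, and 7 of the 12 were lower with none higher. The sum of 7 B cell markers, led by Cd79b, was 199 and 158 FPKM in 5-FU recipients and 353 and 355 FPKM in control recipients, and of the 6 tested 3 were lower with none higher. Of these 3, Ebf1 and Vpreb1 met the filter of 1 FPKM through the control libraries alone, so their testing was tied to their difference. Cd79b, the other, gave most of each sum, with 171 and 155 FPKM in 5-FU recipients and 314 and 327 FPKM in control recipients. These sums were lower in 5-FU recipients, as were Klrd1, Klrk1, Klrc1 and Cd4, and their part in those differences was not tested. The 8 plasmacytoid dendritic cell markers, led by Bst2, Tcf4 and Ly6d, summed to 178 and 98.6 FPKM in 5-FU recipients and 119 and 123 FPKM in control recipients, but the defining gene Siglech had at most 1.54 FPKM. The 8 markers of group 2 innate lymphoid cells, led by Rora, Il7r and Gata3, summed to 6.04 and 5.87 FPKM in 5-FU recipients and 14.9 and 12.7 FPKM in control recipients, with Il5 and Il13 listed at 0 throughout.

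Control recipient 1 stood apart in basophil genes. The 8 mast cell and basophil markers, led by Prss34, Mcpt8 and Cpa3, summed to 12.1 and 37.2 FPKM in 5-FU recipients and to 434 and 17.4 FPKM in control recipients 1 and 2. Without that library the log2 fold change was 2.40 for Cd69, 1.39 for Nkg7, -2.36 for Klrd1 and -1.54 for Cd4. Without control recipient 2 it was 1.78 for Cd69, 1.14 for Nkg7, -2.59 for Klrd1 and -0.81 for Cd4. Calls were lost on leaving out either control library, as given with each gene, so such losses were not particular to control recipient 1. The 10 markers of the transplanted LSK fraction, led by Cd34, Kit and Flt3, summed to 402 and 575 FPKM in 5-FU recipients and 476 and 386 FPKM in control recipients, with Ly6a alone higher. The 5 NK cell genes Ncr1, Klrb1c, Klrk1, Eomes and Gzma summed to 5.02 and 6.67 FPKM in 5-FU recipients and 13.1 and 12.7 FPKM in control recipients, and Klrk1 gave most of the control sum.

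**Figure D5:**
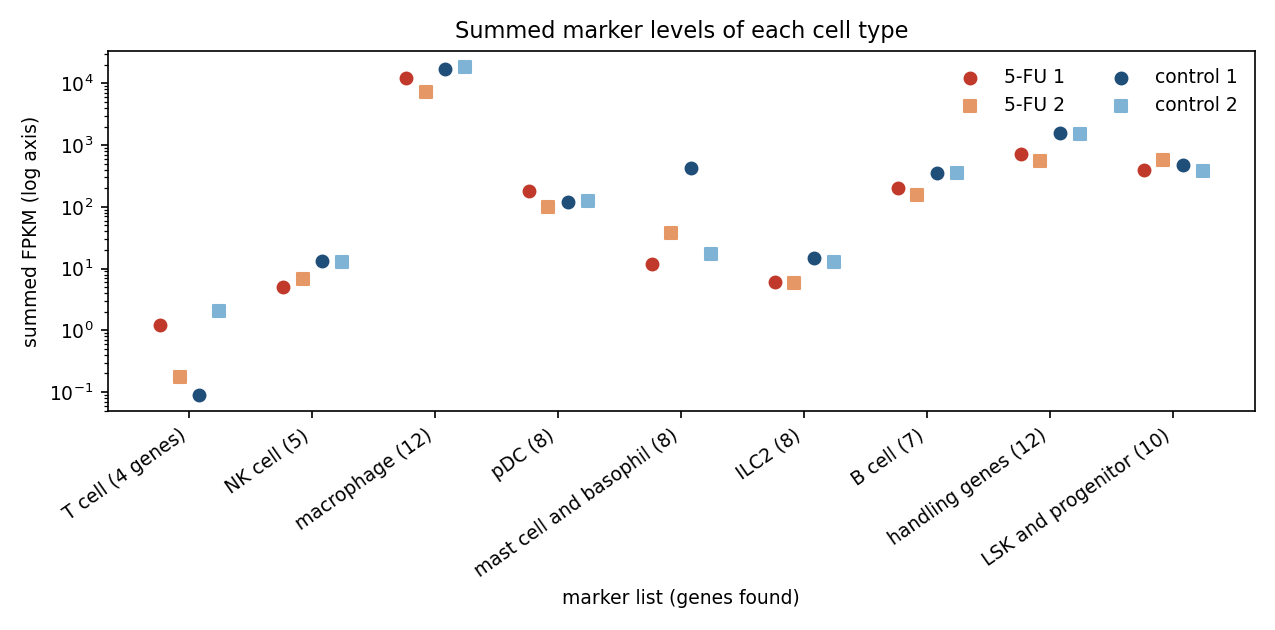
Summed FPKM of marker lists in each library on a log axis, with the number of genes found in brackets. The T cell and NK cell sums lie at most at 2.09 and 13.1 FPKM, against 7225 to 18369 FPKM for macrophage markers, and control recipient 1 stands apart in mast cell and basophil markers.

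The weight of 1 read was read from the lowest values. In single-transcript genes the low values stepped mostly in whole multiples. Of 193 to 247 such values per library, 81.0% to 85.8% lay within 0.15 of a whole number of reads. The weight was set to fit values at 1 read, so the 80 to 94 genes found there per library met this by construction. A read added 0.1072 and 0.1003 FPKM in 5-FU recipients and 0.131 and 0.126 FPKM in control recipients, divided by transcript length in kilobases. A longer transcript thus gained less per read, and a low value rested on somewhat fewer reads in control libraries. Gzmb, with 1 annotated transcript, had by this measure about 7.1 and 24.4 reads in 5-FU recipients and 4.1 and 3.1 reads in control recipients, and Gzma about 13 reads in 5-FU recipient 2 and 3.5 reads in control recipient 2. A gene listed at 0 was not detected at this depth.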

How the data were processed

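The authors' reads, 75 bp single ends of SMART-Seq cDNA, went through Bowtie2 2.2.3, TopHat2 2.0.13, SAMtools 0.1.19 and Cuffnorm 2.2.1 on mm10, per the submitters' processing notes. The deposited FPKM are scaled between libraries. The sources used here do not give the annotation, the scaling setting or the depth. FPKM sums were 678270 and 762107 in 5-FU libraries and 680412 and 678222 in control libraries. Reads per value are rough: 200 bases were taken off each transcript length, chosen after seeing where low values stepped most sharply.

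Groups follow the labels; the deposited tables mark the 5-FU libraries as day 2 in one place and day 3 in another, which the labels do not explain. Genes that reached 1 FPKM in 2 libraries or more were tested as log2(FPKM + 1) with limma 3.58.1 in R 4.3.3, with 2 residual and 5.62 prior degrees of freedom. Fold changes on this scale understate the change of low genes. An exact permutation test of 2 against 2 libraries cannot reach 0.05 and was not used. The p-values combine the spread of each gene between libraries of a group with a trend fitted over all tested genes. By the degrees of freedom the trend carried more weight than the spread of the gene itself. Replicate numbers are shared by the groups but tie no samples by the labels.

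The members and lists were chosen with earlier results of these data known. All 10 members are named. From each pathway list the 4 genes with the smallest p are named, from each marker list the 3 with the highest mean, and 3 genes of like pattern for each of the 2 called members of smallest p. Some genes that this rule takes are not reported here. Of the markers, Adgre1 was matched as Emr1 and Ighm was not matched. The planned T cell marker Trac was not among the summed T cell genes. Alternatives were other pseudocounts, filters and scalings, no trend, the replicate block and leaving out each library. Figures used matplotlib 3.10.9.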

Additional observations from a re-analysis of the deposited data

How the results depend on the processing

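Of the 5 tested members, Nkg7 and Cd69 stayed higher and Klrd1 and Cd4 lower under every alternative run, but their calls did not all hold. The number of members called higher, 2, was 0 with no filter, 1 with no trend and 0 to 2 when a library was left out. The number called lower, 2, was 1 with a pseudocount of 0.1, with TPM scaling and with no trend, 0 with no filter and 0 to 2 when a library was left out. Over all genes, 946 higher and 537 lower became 3 and 4 with no filter, where 3680 genes had an unadjusted p under 0.05, and 548 and 299 with no trend. Leaving out a library gave 88 to 2122 higher and 38 to 1876 lower genes, where the remaining library of a group is taken to vary as the other group does. Both low ends came from leaving out control recipient 1, but leaving out control recipient 2 lowered both counts nearly as far. Both high ends came from leaving out 5-FU recipient 1, and the cause of these shifts was not tested. The log2 fold change of Ncr1 ran from -0.43 to 0.74 when a library was left out and changed sign without 5-FU recipient 1 and without control recipient 1. The 19 genes past the threshold among the members, the pathway genes taken by the naming rule and the genes of like pattern kept their direction in all 266 alternative fits and their call in 210. Their direction was little tested by these fits. Changes of filter, trend or block leave a fold change as it is, and leaving out a library cannot reverse groups that do not overlap. The genes of like pattern were also picked from these same values. With the replicate number as a block 855 genes were higher and 539 lower, with 2 and 2 members; of the pathway genes named, Jak1 no longer passed (limma adjusted p = 0.11) and Cd244 did (limma adjusted p = 0.044). Same-numbered libraries had only a weak tendency to deviate in opposite directions (r = -0.16 across genes). The block with crossed numbers, added after seeing the data, gave 1686 higher and 1365 lower genes. Depth limits the low values: Klrd1 in 5-FU recipients rests on about 4.3 and 1.1 reads, and Prf1 and Cd3e on at most about 8.6 and 5.7.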
